A study of Danio rerio with 13 samples.

Results

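The mitochondrial plus strand outside the ribosomal RNAs is described here through the nucleotides at which hnRNP A1 was crosslinked. That protein binds RNA and takes part in splicing and in the processing of many transcripts. Its members were chosen by position alone: every nucleotide listed on the plus strand of the mitochondrial chromosome from 1 to 950, the control region, or from 3804 to the end, the protein-coding genes and their tRNAs. These are Zv9 coordinates, here and throughout. They numbered 343 of the 415798 crosslinked nucleotides found in any of the 4 tables of uniquely mapped cDNAs. The sites came from iCLIP of wild-type zebrafish embryos of the AB strain, all irradiated with UV light of 254 nm, which links protein to RNA, so that the nucleotide where each cDNA ends can be read as the crosslinked one. Embryos were taken before zygotic genome activation (preZGA, 32 cells), when the embryo lives on RNA laid down by the mother, or during it (ZGA, 1000 cells), when its own nuclear genome starts to be transcribed. The 13 libraries fell into 4 groups. A mouse antibody against hnRNP A1 was used on 3 preZGA and 4 ZGA libraries. The control pull-down was made with IgG, on 3 libraries of each stage.

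Each group was deposited as 1 summed table of significant sites, so the spread between libraries is not known, nothing was tested, and every difference below is one between pooled tables. Intervals in parentheses are exact 95% intervals that cover counting error only. The hnRNP A1 tables held 583691 cDNAs at preZGA and 480927 at ZGA, and the IgG ones 9606 and 20262. Only significant sites are listed, so the totals do not give library depth, and "no site listed" says only that nothing there passed the authors' threshold.

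Mitochondria reach the embryo through the egg, and their DNA is transcribed apart from the nuclear genome, into long RNAs that run over many genes. In vertebrates tRNA genes stand between most of the mitochondrial genes, and cutting the tRNAs out of the long RNA frees the messenger RNAs, which encode subunits of the respiratory chain and of ATP synthase. The RefSeq gene table of assembly GRCz12tu, used for names and neighbours only, lists 13 protein-coding genes, 22 tRNA genes and 2 ribosomal RNA genes on the zebrafish mitochondrial chromosome. The order in that table opens with trnF, the ribosomal RNA gene mt-rnr1, trnV and the ribosomal RNA gene mt-rnr2. The stretch from 951 to 3803, called the ribosomal RNA stretch below, was set by position and may hold tRNA genes too. From the large ribosomal RNA onward the order in that table begins with trnL1, ND1, trnI, trnQ, trnM, ND2 and trnW. After a run of tRNA genes come COX1, trnS1, trnD, COX2, trnK, ATP8, ATP6, COX3, trnG, ND3, trnR, ND4L and ND4. The series ends with trnH, trnS2, trnL2, ND5, ND6, trnE, CYTB, trnT and trnP, before the control region. ND1 to ND6 encode subunits of complex I, CYTB a subunit of complex III, COX1 to COX3 subunits of complex IV, and ATP6 and ATP8 subunits of ATP synthase. An annotation of Zv9 was not used here, so sites are given by position and not assigned to single genes. Gene strands were not taken from the GRCz12tu table either, so a gene listed above need not be encoded on the plus strand.

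Outside the ribosomal RNAs the plus strand held more hnRNP A1 cDNAs at ZGA than at preZGA, in the raw counts and as a share of the table. The hnRNP A1 table listed 461 cDNAs on 169 sites there at preZGA, and 2537 on 271 sites at ZGA. IgG had no site listed at preZGA, and 330 cDNAs on 94 sites at ZGA. The share of all hnRNP A1 cDNAs was 0.0790% (0.0719 to 0.0865) at preZGA and 0.528% (0.507 to 0.548) at ZGA, a ratio of 6.68 (6.05 to 7.39). With site numbers in place of cDNA numbers the ratio was 2.30 (1.89 to 2.81). The gain thus lay both in the share of sites and in cDNAs per site. The cDNAs per site averaged 2.73 at preZGA and 9.36 at ZGA, with medians of 1 and 4, against averages of 2.03 and 2.40 over the genome. The mitochondrial minus strand averaged 3.01 and 9.47, so this rise was not particular to these sites, and the ribosomal RNA stretch 32.5 and 35.8. Sites of a single cDNA made up 51.5% (43.7 to 59.2) of the sites at preZGA and 23.6% (18.7 to 29.1) at ZGA. These shares were 65.4% and 65.1% over the genome. On the mitochondrial minus strand they were 33.6% and 30.4%, and in the ribosomal RNA stretch 3.50% and 3.64%.

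The ribosomal RNA stretch of the same strand, from 951 to 3803, moved far less. Its hnRNP A1 cDNAs went from 24127 on 742 sites to 25550 on 714 sites, a ratio of shares of 1.29 (1.26 to 1.31). The rest of the plus strand accordingly went from 1.87% (1.71 to 2.05) of the mitochondrial plus-strand cDNAs to 9.03% (8.70 to 9.37). The minus strand of the mitochondrial chromosome, with 404 and 1837 cDNAs, had a ratio of 5.52 (4.95 to 6.16). All other chromosomes together had one of 0.980 (0.976 to 0.984).

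IgG differed between the stages in the same direction, from no listed site to 1.63% (1.46 to 1.81) of its table at ZGA. The IgG signal at ZGA equalled 13.0% of the hnRNP A1 signal, with 2207 more cDNAs listed for hnRNP A1 than for IgG. Leaving out hnRNP A1 sites within 15 nt of an IgG site of their own stage left 349 cDNAs on 65 sites at ZGA. At preZGA it removed nothing from this strand, where IgG had no site listed. Such sites were left out over the whole genome, so the totals of the shares shrank too, at both stages. At ZGA the total went from 480927 to 346680 cDNAs. On these totals the ratio of shares was 1.11 (0.964 to 1.28), while the raw count of 349 at ZGA was below the 461 at preZGA. On this strand the setting removed sites at ZGA alone, so a lower ZGA count was built into it. When the ZGA IgG sites were used to clear both stages, an alternative chosen after seeing the data, 111 cDNAs on 68 sites were left at preZGA and the same 349 at ZGA, a ratio of 4.62 (3.72 to 5.77). There the preZGA total was 509119 cDNAs. How far the control signal takes part in the higher hnRNP A1 counts was not tested.

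The listed sites lay in a few short stretches and not along the whole strand. The authors' threshold was set on a neighbourhood of 15 nt, which can favour grouped sites. A share of bins without a site over the genome is not given here. Of the 28 bins of 500 nt up to the last site, 14 held a site of any table and 14 held none. Bins were counted from position 1 and trimmed at the edges of the ribosomal RNA stretch. Of the 11 bins with an hnRNP A1 site at preZGA and the 11 with one at ZGA, 8 were the same. These 8 also were the bins that reached 20 hnRNP A1 cDNAs over both stages and could be compared. In all 8 the share was at least 2-fold higher at ZGA and in none at least 2-fold lower. Over the genome, 13.8% of the 7997 bins of 500 nt and 1 strand with that many cDNAs were at least 2-fold higher and 26.1% at least 2-fold lower. Of the 8, 7 held an IgG site at ZGA, against 4.1% of the compared bins of the genome. Among compared bins with an IgG site at ZGA anywhere in the genome, 72.9% were higher, and among those without one 11.3%. This split was made by signal at ZGA alone, which can favour higher bins among those with an IgG site. Without hnRNP A1 sites near an IgG site of their own stage, and on totals cleared of them, 2 of the 8 were higher and 4 lower. That setting removes sites at ZGA alone here, so fewer higher calls were built into it. It cannot show whether the calls depend on the IgG signal. Over the genome that setting gave 15.5% higher and 21.5% lower.

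**Figure D1:**
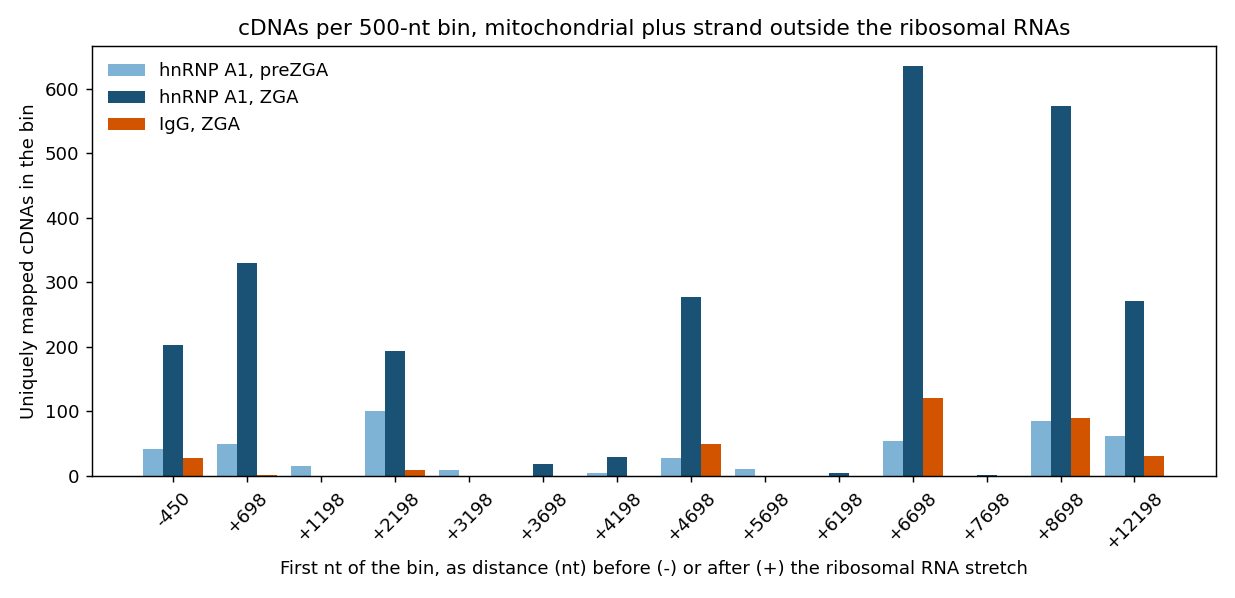
Uniquely mapped cDNAs (vertical axis, from 0) in each of the 14 bins that held a site, for hnRNP A1 at preZGA and at ZGA and IgG at ZGA; the horizontal axis gives the bin's first nucleotide as its distance before or after the ribosomal RNA stretch. The highest bar, 635 hnRNP A1 cDNAs at ZGA, stands at +6698 beside 54 at preZGA, and the bins at +1198, +3198 and +5698 hold preZGA cDNAs alone.

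The bin from 10501 to 11000 held the most cDNAs at ZGA. It had 54 hnRNP A1 cDNAs on 19 sites at preZGA, 635 on 49 sites at ZGA and 121 IgG cDNAs at ZGA, and its ratio of 14.3 (10.8 to 19.2) was the highest of the 8. The bin from 12501 to 13000 came next, with 85, 573 and 90 cDNAs in the same order and a ratio of 8.18 (6.51 to 10.4). These bins together held 47.6% of the ZGA cDNAs of the strand outside the ribosomal RNAs and 30.2% of those at preZGA.

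At preZGA the leading bin was instead the one from 6001 to 6500. Its 101 hnRNP A1 cDNAs at preZGA became 194 at ZGA, beside 10 of IgG, with the lowest ratio of the 8, 2.33 (1.82 to 3.00). Its part of the preZGA cDNAs was 21.9%, and of the ZGA cDNAs 7.65%. The bin from 16001 to 16500 went from 62 to 271 cDNAs, a ratio of 5.31 (4.01 to 7.11), beside 31 IgG cDNAs at ZGA. The bin from 4501 to 5000 went from 49 to 330, a ratio of 8.17 (6.04 to 11.3), and had a single IgG cDNA.

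The other 3 compared bins were smaller or held more IgG. The bin from 8501 to 9000 went from 28 to 277 cDNAs, a ratio of 12 (8.13 to 18.4), beside 49 of IgG. The part of the control region from 501 to 950 went from 42 to 203, a ratio of 5.87 (4.19 to 8.39), beside 28 of IgG. The bin from 8001 to 8500 went from 5 to 30, a ratio of 7.28 (2.80 to 24.0), and was the compared bin without an IgG site. The first 500 nt of the control region had no site listed in any table.

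The 6 remaining bins held few cDNAs. Those at 5001, 7001 and 9501 had 15, 9 and 11 hnRNP A1 cDNAs at preZGA and no site listed at ZGA. Those at 7501, 10001 and 11501 had 19, 4 and 1 at ZGA and no site listed at preZGA. None of the 6 had an IgG site. The share of bins listed at 1 stage alone over the genome is not given here.

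Because a bin can hold stretches that differ, the sites of all 4 tables were also joined into clusters, with neighbours at most 15 nt apart, a unit chosen after seeing the data. Like the bins, clusters were cut at the edges of the ribosomal RNA stretch. This gave 27 clusters, of which 4 were single nucleotides. With 20 hnRNP A1 cDNAs over both stages and at least 2 nucleotides, 15 could be compared, and they spanned 2 to 63 nt, with a median of 28 nt. In 14 of the 15 the share was at least 2-fold higher at ZGA, and in 1 at least 2-fold lower. The interval of 1 of the 14 reached below 1: the cluster from 16366 to 16394 went from 9 to 16 cDNAs, a ratio of 2.16 (0.898 to 5.54). Over the genome 14.3% of 8996 such clusters were higher and 26.2% lower. Of the 15, 10 held an IgG site at ZGA, against 3.59% of the genome's compared clusters. All 10 were among the higher ones, which says little where 14 of 15 were higher. Among compared clusters with an IgG site at ZGA anywhere in the genome, 77.4% were higher, and among those without one 11.96%. As for the bins, this split was made by signal at ZGA alone, which can favour higher calls among clusters with an IgG site.

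**Figure D2:**
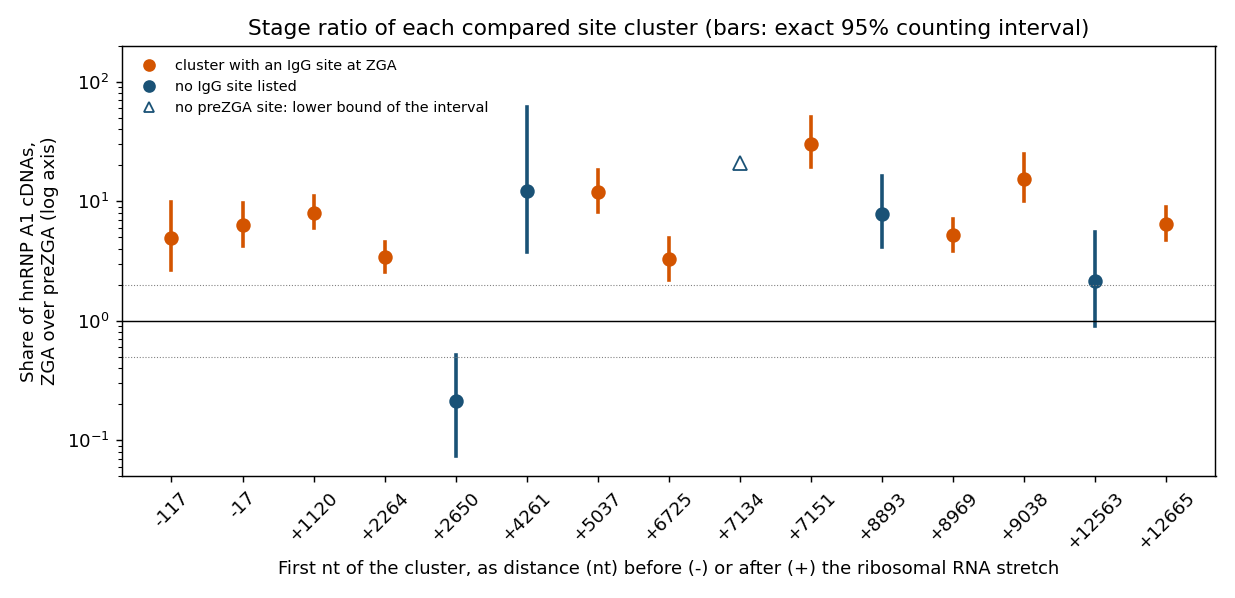
Share of hnRNP A1 cDNAs at ZGA over that at preZGA (log axis) for the 15 compared clusters in order of position, given as distance from the ribosomal RNA stretch, with exact 95% counting intervals; dotted lines mark 2-fold. The cluster at +7151 is highest at 30.4, the cluster at +2650 alone lies below 1, at 0.214, and the open triangle is the lower bound of 20.8 for a cluster with no preZGA site.

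The largest gain lay in neighbouring clusters of the bin from 10501. The cluster from 10954 to 10984 had 19 hnRNP A1 cDNAs on 9 sites at preZGA, 476 on 30 sites at ZGA and 120 IgG cDNAs on 24 sites at ZGA. Its ratio was 30.4 (19.3 to 51.0). Directly before it, the pair of nucleotides 10937 and 10938 held 65 hnRNP A1 cDNAs at ZGA, with no site listed at preZGA and none for IgG. The interval of that ratio began at 20.8. In the same bin the cluster from 10528 to 10547 went only from 35 to 94 cDNAs, a ratio of 3.26 (2.19 to 4.95), beside 1 of IgG. The interval of this last cluster did not overlap those of the other 2, but these intervals cover counting error only. The bin's ratio of 14.3 was a sum over clusters with different ratios, and the differences were not tested.

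The bin from 12501 was likewise made of clusters with different ratios. The cluster from 12841 to 12870 went from 22 to 280 cDNAs, a ratio of 15.4 (10.002 to 25.05), beside 70 IgG cDNAs. The cluster from 12772 to 12795 went from 52 to 222, a ratio of 5.18 (3.82 to 7.15), beside 20 IgG cDNAs. The cluster from 12696 to 12706 went from 11 to 71, a ratio of 7.83 (4.12 to 16.4), and had no IgG site listed.

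A fall at ZGA stood beside a gain in the bin from 6001. The cluster from 6067 to 6086 went from 67 to 188 cDNAs, a ratio of 3.41 (2.56 to 4.57), beside 10 IgG cDNAs. Farther on, the cluster from 6453 to 6480 had 34 cDNAs on 13 sites at preZGA and 6 on 5 sites at ZGA, a ratio of 0.214 (0.0735 to 0.516). It had no IgG site listed and was the compared cluster that was lower. The ratio of the bin, 2.33, was thus a sum over a higher and a lower cluster.

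Smaller clusters were listed at preZGA alone as well. There were 6 of them, single nucleotides included, with 42 cDNAs on 33 sites and no IgG site. The larger ones were 5007 to 5025 with 14 cDNAs, 9506 to 9519 with 11 and 7461 to 7468 with 9. For 5007 to 5025 the interval of the ratio ended at 0.366, for 9506 to 9519 at 0.484 and for 7461 to 7468 at 0.615. At ZGA alone 7 clusters were listed, with 95 cDNAs on 21 sites and no IgG site. Apart from 10937 and 10938 the largest was 7700 to 7724, with 18 cDNAs on 10 sites. Shares of clusters listed at 1 stage alone over the genome are not given here, so neither count shows that this strand is unusual. The 10 clusters with an IgG site at ZGA had a summed ratio of 7.77 (6.96 to 8.71), from 362 to 2319 cDNAs. The 17 without one went from 99 to 218, a ratio of 2.67 (2.10 to 3.42). Of these 17 the cluster from 8064 to 8091 went from 3 to 30, a ratio of 12.1 (3.77 to 62.1). This split was made by IgG sites of ZGA alone, so it can favour a higher ratio in the clusters that carry one. The difference between the summed ratios was not tested.

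Within the clusters single nucleotides could carry most of the signal. Nucleotide 6072 led the strand outside the ribosomal RNAs at both stages, with 52 hnRNP A1 cDNAs before activation and 139 during it, beside 9 of IgG. It held 77.6% of its cluster's cDNAs at preZGA and 73.9% at ZGA. Nucleotide 950, the last before the ribosomal RNA stretch, had 17 and 114 hnRNP A1 cDNAs and 12 of IgG, with 76% of the ZGA cDNAs of the cluster from 934 to 950. That cluster ends at 950 only because it was cut there: sites go on from 956, inside the ribosomal RNA stretch, and 959 alone had 420 hnRNP A1 cDNAs at ZGA, so 950 does not lead the uncut run. Its neighbour 949 had 10 and 33, and no IgG. The next were 4923 with 109 cDNAs at ZGA, 12859 with 76, 10969 and 16479 with 75 each, and 4954 with 61. Then came 8854 with 58, 10938 with 57 and 8853 with 50. At preZGA 12859 had 6, 10969 had 7, 16479 had 18, 4954 had 24, 8854 had 6 and 8853 had 5. Neither 4923 nor 10938 had a site listed at preZGA. At 4923, 4954 and 10938 IgG had no site listed. At 8854 and at 8853 IgG had 11 cDNAs at ZGA.

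Of the 10 leading nucleotides of each stage, 5 were the same: 950, 4954, 6072, 10969 and 16479. The others at preZGA were 10528 with 14 cDNAs, 949 with 10, 6466 with 9, and 12787 and 12793 with 7 each. All of these had cDNAs at ZGA too except 6466, which lies in the cluster that was lower. In 8 of the 14 compared clusters with sites at both stages the same nucleotide led at both. A matching share over the genome is not given here for that count.

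Nucleotides 4923 and 10938 stood apart, each set off from the sites that follow it. Nucleotide 4923 had 109 hnRNP A1 cDNAs at ZGA, and the next listed site lay 15 nt downstream. Nucleotide 10938 had 57, and the next lay 16 nt downstream. Neither had a site at preZGA or for IgG at ZGA, although the cluster downstream of 10938 had 120 IgG cDNAs. In the cluster from 4923 to 4966 the leading nucleotide at preZGA was instead 4954, with 24 cDNAs and with 61 at ZGA.

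**Figure D3:**
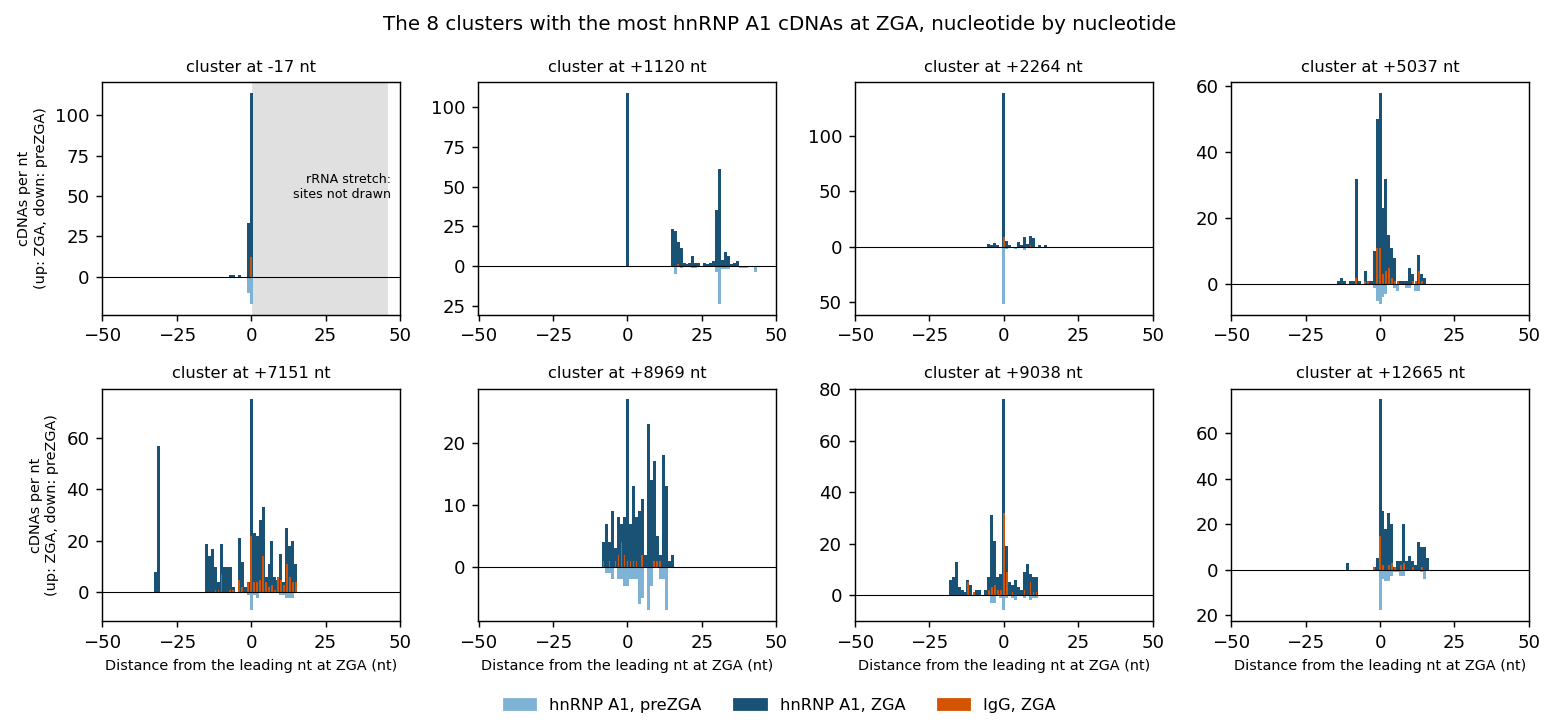
cDNAs per nucleotide in the 8 clusters with the most hnRNP A1 cDNAs at ZGA, upward for ZGA (hnRNP A1 and, in front of it, IgG) and downward for hnRNP A1 at preZGA, against the distance from the leading nucleotide at ZGA; each panel has its own vertical axis. A single nucleotide with 139 cDNAs dominates the cluster at +2264, signal is spread over the cluster at +8969, and a column of 57 cDNAs, beside one of 8, stands upstream of the cluster at +7151; the cluster at -17 is cut at the ribosomal RNA stretch (grey), whose sites are not drawn.

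The fold of hnRNP A1 over IgG at ZGA varied widely among the clusters. It is a ratio of raw cDNA counts, from 4 hnRNP A1 and 3 IgG libraries, not scaled to the table totals. As a share of the table, the strand outside the ribosomal RNAs was larger for IgG, 1.63%, than for hnRNP A1, 0.528%. Over this whole strand the fold was 7.69 (6.85 to 8.65), lower than the 25.9 (24.3 to 27.7) of the ribosomal RNA stretch and the 24.2 (23.8 to 24.5) of all other chromosomes. The mitochondrial minus strand had a lower fold still, 6.10 (5.40 to 6.92), so a low fold was not particular to these sites. At preZGA the ribosomal RNA stretch had a fold of 161 (137 to 190), from 150 IgG cDNAs, and all other chromosomes one of 59.1 (57.9 to 60.3). For the rest of the mitochondrial plus strand and for the minus strand no fold could be given, since no IgG site was listed there.

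The lowest folds were in the cluster of the control region from 834 to 896, at 3.31 (1.86 to 6.21) from 53 and 16 cDNAs, and in the clusters from 10954, at 3.97 (3.24 to 4.89), and 12841, at 4.00 (3.07 to 5.28). The first of these was spread thinly, with no nucleotide above 7 hnRNP A1 cDNAs. The cluster from 8840 to 8869 had a fold of 5.65 (4.16 to 7.83) and that from 16468 to 16495 one of 8.23 (5.65 to 12.4). The folds were 11.1 (7.02 to 18.5) for 12772 to 12795, 12.5 (6.95 to 24.7) for 934 to 950 and 18.8 (9.999 to 39.8) for 6067 to 6086.

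In 2 clusters with an IgG site the control was at a single cDNA. The cluster from 4923 to 4966 had 324 hnRNP A1 cDNAs and 1 of IgG at ZGA, a ratio of 324 (57.7 to 12836), and that from 10528 to 10547 had 94 and 1, a ratio of 94 (16.5 to 3752). The clusters 10937 to 10938 and 12696 to 12706, with 65 and 71 hnRNP A1 cDNAs, had no IgG site listed. Clusters of like hnRNP A1 count thus carried very different IgG counts, from 1 beside 324 to 70 beside 280.

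**Figure D4:**
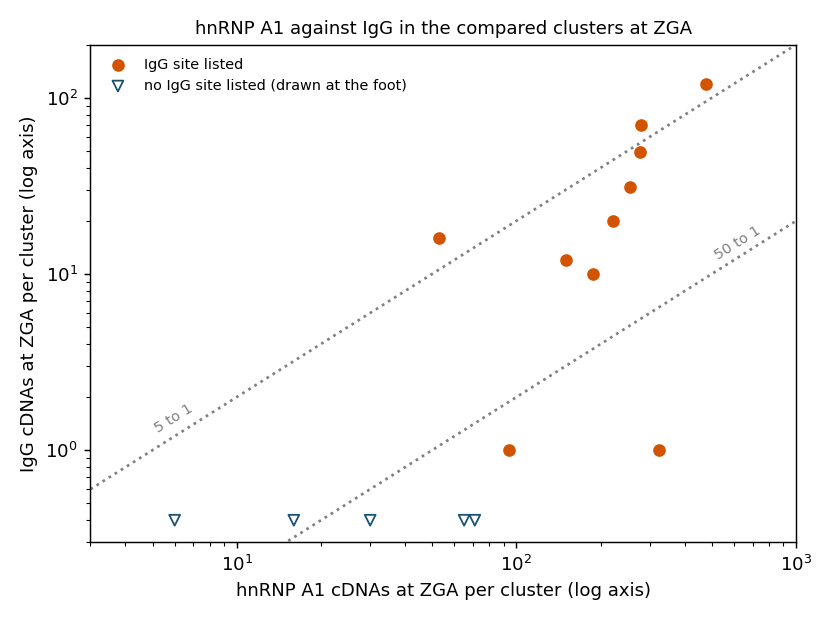
IgG cDNAs against hnRNP A1 cDNAs at ZGA in the 15 compared clusters, both on log axes, with dotted lines at 5 and 50 hnRNP A1 cDNAs to 1 of IgG; triangles at the foot are the 5 clusters with no IgG site listed. The cluster with 324 hnRNP A1 cDNAs and 1 of IgG lies far below those with 277 and 49 or 280 and 70.

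Where IgG had sites at ZGA, most fell on hnRNP A1 sites, here as over the genome. Of the 94 IgG sites at ZGA, 86 were hnRNP A1 sites of that stage on the same nucleotide, or 91.5% (83.9 to 96.3). The 8 others had at most 2 cDNAs. The share on the same nucleotide was 81.5% over the genome and 84.7% in the ribosomal RNA stretch. All 94 lay within 15 nt of such a site, against 91.2% over the genome and 95.8% in the ribosomal RNA stretch. Read from the hnRNP A1 side, 86 of 271 sites, or 31.7% (26.2 to 37.6), were IgG sites, against 1.51% over the genome, and they held 58.1% of the cDNAs, against 20.9%. The ribosomal RNA stretch had 22.5% of its sites and 49.5% of its cDNAs on IgG sites. Of the preZGA sites 49 of 169, or 29.0%, fell on nucleotides that IgG listed at ZGA, against 0.529% over the genome and 17.4% in the ribosomal RNA stretch. The leading IgG nucleotides were 12859 with 32 cDNAs, 10969 with 22, 16479 with 15, 10973 with 14 and 950 with 12. All but 10973, which had 33 hnRNP A1 cDNAs, were among the 10 leading hnRNP A1 nucleotides at ZGA. The IgG count was 42.1% of the hnRNP A1 count at 12859, 42.4% at 10973, 29.3% at 10969, 20% at 16479 and 10.5% at 950. At 9 nucleotides the IgG count exceeded the hnRNP A1 count, with 10978 the largest of them, at 6 against 5.

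On the same nucleotide, preZGA sites were listed at ZGA more often than over the genome, and ZGA sites at preZGA about as often. At both stages 103 nucleotides were listed, which is 60.9% (53.2 to 68.3) of the preZGA sites and 38.0% (32.2 to 44.1) of the ZGA sites. Both shares count the same nucleotides, so the order of these shares follows from the site numbers alone. Over the genome these shares were 25.4% and 36.5%, and in the ribosomal RNA stretch 75.7% and 78.7%. The shared nucleotides averaged 3.50 cDNAs at preZGA and 15.5 at ZGA, against 1.53 and 5.58 at the other sites. Of the 103, 90 had a higher count at ZGA, 11 an equal one and 2 a lower one. These are raw counts from 3 preZGA and 4 ZGA libraries, and no matching share over the genome is given here. Within 15 nt, 79.3% of the preZGA sites and 89.3% of the ZGA sites had a site of the other stage, against 64.5% and 75.0% over the genome and 86.8% and 89.8% in the ribosomal RNA stretch.

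The edges of the chosen stretch touched strong signal on the control region side only. Just inside, from 941 to 950, hnRNP A1 had 28 cDNAs at preZGA and 150 at ZGA, and IgG 12 at ZGA. Just outside, from 951 to 960, there were 82 and 698 and no IgG. No site was listed from 951 to 955, and the outside counts rested on 959 with 41 and 420 cDNAs and 960 with 38 and 230. At the other edge the last hnRNP A1 site before 3804 was at 3703 at preZGA and 3777 at ZGA, and the first after it at 4939 and 4825.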

How the data were processed

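The authors deposited, per the labels and file headers, bedGraph tables of cDNA counts at significant crosslinked nucleotides of the summed replicates. The headers give a false discovery rate below 0.01, 100 permutations, a neighbourhood of 15 nt, regions treated separately, Ensembl release 72 and danRer7, which is Zv9. The submitters' processing notes name CASAVA 1.4. The aligner and the removal of duplicates are not given in the sources used here. The sign of a count gives the strand. The 26 files held 8 distinct tables, since each library of a group carries the group's copy, and each was counted once. The label text speaks of 3 summed replicates where the ZGA hnRNP A1 group has 4 libraries.

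The uniquely mapped tables gave all values except those named as multi-mapping and the alternative that adds them. Ratios of shares carry exact conditional binomial intervals and shares Clopper-Pearson intervals. Bins and clusters were cut at the edges of the ribosomal RNA stretch. A bin was compared where the stages together gave it at least 20 hnRNP A1 cDNAs, and a ratio of at least 2 or at most 0.5 was called. The code was tested on simulated counts. All bins and clusters of the region were accounted for. Named in full were, per stage, the 5 leading bins, 10 leading hnRNP A1 and 5 leading IgG nucleotides, the 3 leading IgG bins and the 3 highest and lowest ratios, and clusters named beside them were chosen after their values were seen. The region and its units were chosen with earlier results of these data known. Intervals came from scipy 1.17.1, tables were handled with pandas 2.3.3 and numpy 2.4.6 under Python 3.11.15, and figures were drawn with matplotlib 3.10.9.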

Additional observations from a re-analysis of the deposited data

How the results depend on the processing

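No paired analysis was possible because each group was 1 pooled table, and for the same reason no library could be left out. For the strand outside the ribosomal RNAs no fold over IgG was given at preZGA, where IgG had no site listed. The log2 ratio of shares, 2.74, was 2.90 with sites of at least 2 cDNAs, 3.19 with at least 5, 1.20 by site numbers, 2.27 relative to the mitochondrial plus strand, 0.15 without sites near an IgG site of the same stage and 2.21 without those near a ZGA IgG site at either stage. In both IgG settings the totals were cleared of such sites too. The log2 ratio of shares moved less under the other 5 alternatives. The fold over IgG at ZGA was 11.5 with sites of at least 5 cDNAs and 2.88 by site numbers. Bins higher at ZGA numbered 5 instead of 8 by site numbers, where 7 could be compared and 10.99% of the genome's bins were higher. Without sites near an IgG site of the same stage 2 were higher and 4 lower, against 15.5% and 21.5% over the genome. With bins of 250 nt, 1 of 11 compared bins was lower and 10 were higher, against 26.0% and 13.4% over the genome. With bins shifted by 250 nt, 1 of 12 was lower and 11 were higher, against 25.6% and 13.8%. Of single bins, those at 501, 6001 and 16001 reversed without sites near a same-stage IgG site, to log2 ratios of -4.84, -3.52 and -1.40. The value at 501 rested on 1 ZGA cDNA, at 896, against 42 at preZGA. The bin at 8501 was lower too: it kept its 28 preZGA cDNAs and no ZGA cDNA, so it had no log2 ratio. This setting removes sites at ZGA alone here. Without sites near a ZGA IgG site at either stage the bin at 6001 stood at -1.95. That removed its cluster from 6067 to 6086 at both stages. Only the lower cluster from 6453 to 6480 was left, with 34 and 6 cDNAs. The shared percentage of preZGA sites, 60.9, was 74.4 and 90.0 with at least 2 and 5 cDNAs, and 69.8 and 79.3 with 1 and 15 nt of tolerance. For ZGA sites, 38.0, it was 29.5, 15.4, 58.7 and 89.3. Joining at 3 nt gave 29 preZGA clusters instead of 19. The cause of these shifts was otherwise not tested.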

Other observations

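The tables of multi-mapping cDNAs, where 1 cDNA is split among the places it maps to, added little to the mitochondrial plus strand outside the ribosomal RNAs. For hnRNP A1 they listed 1 site with 0.5 cDNA at preZGA, at 12685, and 2 sites with 0.75 cDNA at ZGA, at 6910 and 8859. For IgG they listed none at preZGA and 2 sites with 0.833 cDNA at ZGA, at 12689 and 13878.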
